A study of Mus musculus with 15 samples.

Results

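The genes described here are 10 mouse genes that act in the uptake, storage and oxidation of fatty acids. They were chosen by name, as every noncontrol array row whose gene name is Angptl4, Lpl, Cd36, Fabp4, Fabp5, Plin2, Pparg, Ppard, Pdk4 or Cpt1a. The rows amount to 18 probes of the 56605 on the array, of which 16 were tested, and 9 of the 10 genes are among the 19506 genes with a tested probe. RNA came from RAW264.7 cells, a mouse macrophage-like line derived from a virally induced tumour, and each of 5 groups had 3 one-colour arrays. The vehicle group is labelled with the solvents ethanol (EtOH) and DMSO, and the other groups received dexamethasone (DEX), fluticasone furoate (FF), VSG158 or VSG159, each at 100 nM for 1 h before 16 h with LPS (1 ug per ml), which comes from the outer membrane of bacteria and activates macrophages. DEX and FF are synthetic glucocorticoids, and the VSG compounds are known here only by their codes. All treated groups are called steroid groups below for short, although the structure of the VSG compounds is not given in the sources used here. The treatment text is the same for every sample and includes LPS, whereas the vehicle labels name only solvents, so the comparisons with vehicle are read as steroid against solvent with LPS in both. The series' design text says that treatments were duplicated while 3 arrays per group are labelled, and nothing says whether the 3 came from separate cultures, so p-values measure the spread between these arrays, which may be technical.

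Macrophages take up fatty acids in part by cutting triglyceride outside the cell with lipoprotein lipase (Lpl), which angiopoietin-like 4 (Angptl4) inhibits, and in part through the scavenger receptor and fatty acid translocase Cd36. Inside the cell the fatty acid binding proteins Fabp4 and Fabp5 carry the lipid, perilipin 2 (Plin2) coats the droplets that store it, and Cpt1a passes it into mitochondria for oxidation, while Pdk4 holds back the pyruvate dehydrogenase complex and so spares glucose. Pparg and Ppard are nuclear receptors for fatty acids, and Angptl4, Cd36, Fabp4, Plin2, Pdk4 and Cpt1a are textbook targets of receptors of this family. Foam cells, the lipid-laden macrophages of artery walls, are the setting in which most of these genes are known in this cell type.

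Levels below are log2 signals relative to the 75th percentile of the same array, so levels of different probes are not compared. A change is the difference of group means with its standard error, tested two-sided with limma across all 28508 tested probes, and it is called when the Benjamini-Hochberg adjusted p is under 0.05. The 75th percentile was 695 to 1223 signal units, 39.6% to 50.4% of spots lay well above background, and saturated spots numbered 0. The highest 75th percentiles (1170 to 1223) and the most spots marked as outliers (639 to 960) were those of VSG158 replicate 3 and VSG159 replicates 1 and 2. The other arrays had at most 940 units and 294 such spots. The lowest share well above background was that of VSG158 replicate 2, and the next lowest was 46.4%. Of 12 macrophage markers on the array, 11 were well above background on all 15 arrays, the exception being Mrc1 on 10. Of 7 adipocyte markers, Lep was well above background on 15 arrays, Retn on 14, Cfd on 5 and Plin1 on 2, and Adipoq, Cidec and Adrb3 on 0. Lpl, Fabp4 and Plin2 are also known from adipocytes, whereas every sample is labelled as the macrophage line named above. Of the other markers looked at, 5 of 7 osteoclast, 4 of 7 T cell and 1 of 7 neutrophil markers were well above background on all 15 arrays. The same held for 1 of 6 fibroblast, 0 of 5 B cell and 0 of 6 epithelial markers. Detection alone therefore did not single out macrophages, and the purity of the cultures was not tested. The vehicle arrays, VSG158 arrays and replicates 1 and 2 of VSG159 lay on slide 1, and replicate 3 of VSG159 with all FF and DEX arrays on slide 2, so vehicle shares no slide with DEX or FF. Values with the slide in the model are given beside the results for the members whose call a fixed slide block changes.

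The sequences that bear on the receptors above are the promoter windows of the members, 300 bases around the RefSeq start site (GRCm38.p6). The promoter table held 8 windows of 6 members, with 3 for Pparg and 1 each for Cd36, Plin2, Ppard, Pdk4 and Cpt1a. Angptl4, Lpl, Fabp4 and Fabp5 were the members without an entry. The motif AGGTCA, whose direct repeat is the binding site of the PPAR family, was searched on both strands and occurred once each in the windows of Cd36, Plin2 and Cpt1a and in 2 of the 3 windows of Pparg. It occurred in none of the windows of Ppard and Pdk4. Of all 32851 windows of the same length, 16.3% hold it. The motif TGTTCT, whose inverted repeat is the binding site of the glucocorticoid receptor and which 19% of all windows hold, had 0 matches in the 8 windows. The direct repeat of the first motif with a 1-base gap (0.0396% of all windows) and the inverted repeat of the second with a 3-base gap (0.00913%) also had 0. The stretches below show the first motif in Cd36, Plin2 and Cpt1a, which fell, and in Pparg, which did not pass the test. For Pparg, 1 of the 2 windows with the motif is shown. A link between motif and change was not tested. The stretches read 5′ to 3′ on the strand of the gene, and capitals mark that motif. For Cd36, Plin2 and Cpt1a the motif lies on the other strand and so appears as its reverse complement.
Cd36, chr5:17836087-17836146, minus strand, match 228 bases before the start: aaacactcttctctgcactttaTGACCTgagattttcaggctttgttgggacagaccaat
Plin2, chr4:86670245-86670304, minus strand, match 218 bases before the start: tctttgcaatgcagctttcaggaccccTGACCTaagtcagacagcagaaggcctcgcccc
Cpt1a, chr19:3323180-3323239, plus strand, match 94 bases before the start: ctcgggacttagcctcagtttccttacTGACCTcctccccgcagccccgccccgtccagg
Pparg, chr6:115362289-115362348, plus strand, match 9 bases before the start: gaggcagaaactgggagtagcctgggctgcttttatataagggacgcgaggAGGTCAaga

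A match is a description of these letters and was not tested as a binding site.

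Of the 9 tested members, 8 were called with DEX (3 higher, 5 lower), 8 with FF (3 higher, 5 lower), 8 with VSG158 (3 higher, 5 lower) and 7 with VSG159 (3 higher, 4 lower). The calls among all genes were 46.4% (DEX), 42.2% (FF), 44.4% (VSG158) and 44.0% (VSG159). The median size of the members' changes was 1.18 (DEX), 1.47 (FF), 1.48 (VSG158) and 1.60 (VSG159) on the log2 scale. The same median over all genes was 0.52 (DEX), 0.45 (FF), 0.49 (VSG158) and 0.51 (VSG159). All genes were called higher in 23.2%, 20.8%, 19.7% and 19.1% of cases and lower in 23.1%, 21.4%, 24.6% and 24.9%, in the same order. The members were chosen with earlier results of these data known, so nothing particular to them is read from these shares and sizes. The 4 comparisons share the same 3 vehicle arrays and are therefore not independent of each other. In such bulk RNA, a change in the number of cells that express a gene and a change in its RNA per cell cannot be told apart.

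**Figure D1:**
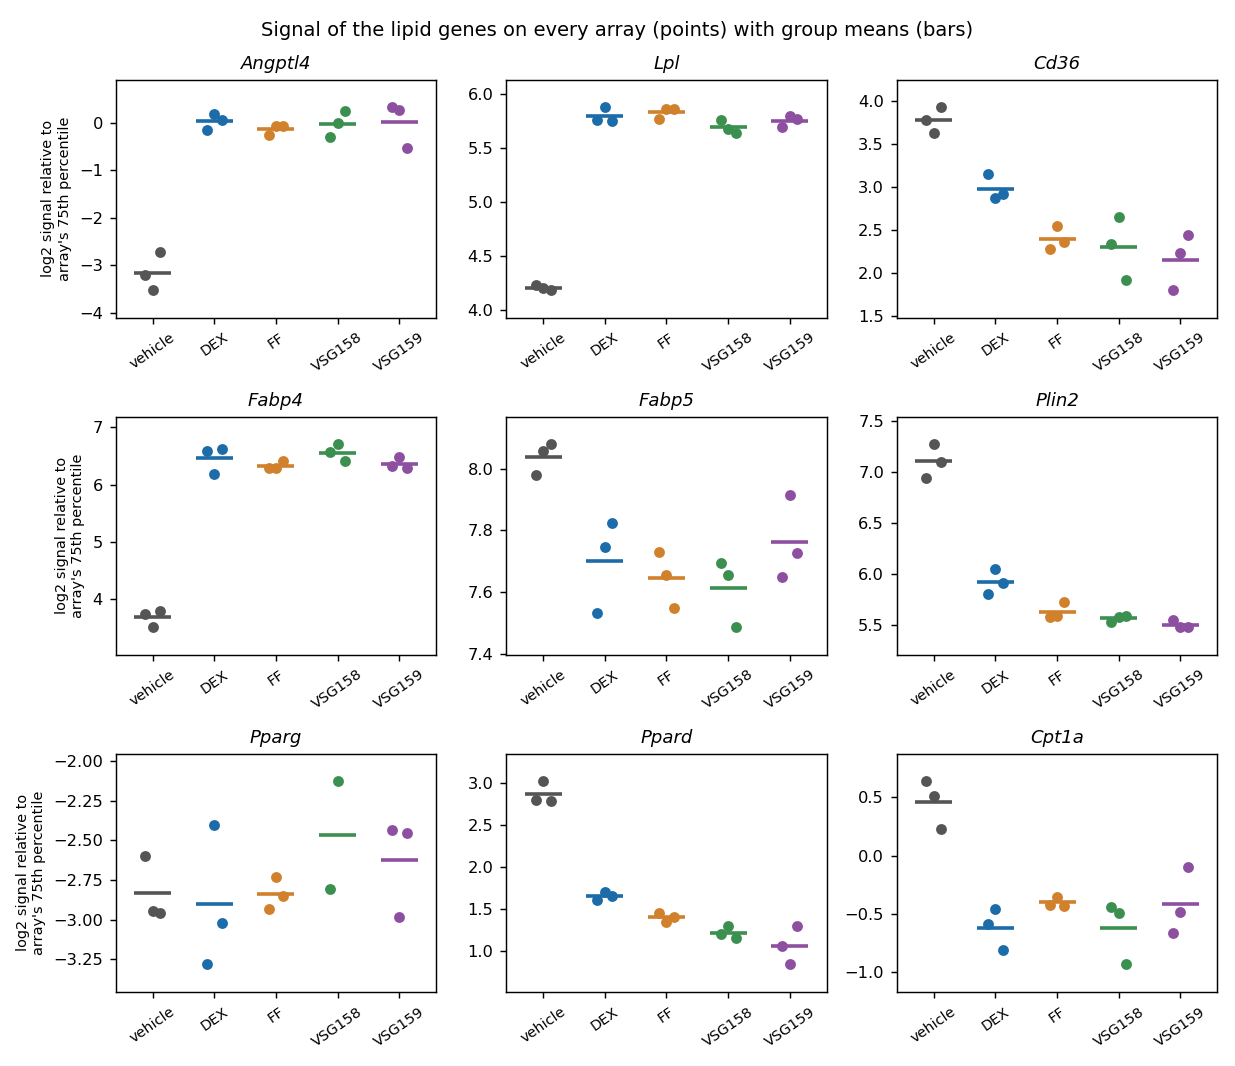
Log2 signal of the 9 tested genes relative to the array's 75th percentile (vertical axis, its range set per gene) on each array, by group (horizontal axis), with bars at group means. Angptl4, Lpl and Fabp4 lie lowest on the vehicle arrays, Cd36, Plin2, Ppard and Cpt1a highest, and Pparg overlaps between vehicle and each steroid group.

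Angptl4, the inhibitor of lipoprotein lipase, had the largest change of the members with every steroid on the scale used here. With normexp and quantile normalization Fabp4 changed more with each steroid (2.75 against 2.59 with DEX), and so it did in the model that adds slide and array position for DEX, VSG158 and VSG159. Its probe (A_51_P338443, chr17:33911880-33911939, minus strand, mm9, base 1808 of its transcript) read -3.21, -3.53 and -2.73 on the vehicle arrays. It read -0.14, 0.18 and 0.06 with DEX, -0.26, -0.06 and -0.07 with FF, -0.29, -0.01 and 0.25 with VSG158, and 0.33, 0.27 and -0.53 with VSG159. Every steroid array lay above every vehicle array, and the probe was well above background on all 15. Angptl4 rose by 3.19 (SE 0.25) with DEX, a 9.13-fold change, with a limma adjusted p of 1.18e-06. The rise was 3.03 with FF (8.15-fold), 3.14 with VSG158 (8.82-fold) and 3.18 with VSG159 (9.05-fold), with adjusted p of 1.2e-06, 9.45e-07 and 8.21e-07. In the model with slide as a fixed block the rises with DEX and FF came to 4.02 and 3.86.

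Lpl, the enzyme that Angptl4 inhibits, also rose. Its brightest probe (A_51_P259296, chr8:71430267-71430326, plus strand, mm9) read 4.23, 4.20 and 4.18 on the vehicle arrays. The steroid arrays ran from 5.64 on replicate 3 of VSG158 to 5.87 on replicate 2 of DEX, so no steroid array reached down to the vehicle arrays. The rise was 1.59 (SE 0.07) for DEX, 1.62 for FF, 1.48 for VSG158 and 1.54 for VSG159, which spans changes of 2.79-fold to 3.08-fold. The limma adjusted p was 3.84e-08 or lower in each of the 4 comparisons. With slide as a fixed block the change with DEX was 1.57, and that with FF 1.60.

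Lpl has 6 probes on the array, and they did not read alike. The sequences of 3 probes of Lpl and Fabp4 that start earlier in the transcript than the brightest probe are shown because they bear on whether the changes hold elsewhere in it (60 bases each, mm9 positions, strand of the transcript).
Lpl A_52_P257812, chr8:71425050-71425109: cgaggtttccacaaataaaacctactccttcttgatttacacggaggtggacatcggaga
Lpl A_66_P123790, chr8:71419652-71419711: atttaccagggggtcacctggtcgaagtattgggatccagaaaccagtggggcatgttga
Fabp4 A_52_P564544, chr3:10208442-10208501: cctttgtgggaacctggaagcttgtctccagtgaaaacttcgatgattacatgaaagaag

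The first of these Lpl probes starts at base 1340 of the transcript and rose by 0.94 (DEX), 1.05 (FF), 0.76 (VSG158) and 0.88 (VSG159) (SE 0.14), called in each comparison, although with median scaling the call with VSG158 ended (0.70, adjusted p = 0.0786). The other, at base 830, rose by 0.91 with FF (limma adjusted p = 0.00525), and with slide as a fixed block it was at 0.23 and not called (adjusted p = 0.616). Its changes with DEX (0.42), VSG158 (0.36) and VSG159 (0.43) were not called, with 95% confidence intervals from -0.06 to 0.90, -0.13 to 0.84 and -0.05 to 0.91. With normexp and quantile normalization it was called higher in these 3 comparisons (adjusted p = 0.015, 0.0191 and 0.0176), as in the submitters' value table (0.0192, 0.0176 and 0.0223). These probes cover the same transcript as the brightest one and gave smaller changes than it did.

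A further 3 Lpl probes are assigned by the array design to Ensembl transcripts of the gene and lie at lower coordinates of the same strand. Probe A_55_P2900592 (chr8:71405538-71405597) rose by 1.90 (DEX), 2.15 (FF), 1.87 (VSG158) and 2.07 (VSG159) (SE 0.25). Probe A_55_P2738847 (chr8:71408343-71408402) was not well above background on any vehicle array and was so on 2 DEX, 3 FF, 2 VSG158 and 3 VSG159 arrays. It was at least 2.05-fold higher with DEX, 2.07-fold with FF, 2.05-fold with VSG158 and 1.95-fold with VSG159, with limma adjusted p from 0.000236 to 0.000328. Its calls with DEX and FF ended with slide as a fixed block (adjusted p = 0.0598 and 0.062), and its call with VSG158 ended with normexp and quantile normalization (0.0887) and in the value table (0.0648). The bound is the steroid mean over the mean, per vehicle array, of the higher of the probe's signal and the lowest signal well above background. Probe A_55_P2715720 (chr8:71413311-71413370) pointed the other way, at -0.60 (DEX), -0.57 (FF), -0.51 (VSG158) and -0.66 (VSG159), and was called in none (adjusted p from 0.0623 to 0.146). It was called lower with DEX without VSG158 replicate 2 (adjusted p = 0.0472) or DEX replicate 2 (0.0414), and with VSG159 without VSG158 replicate 2 (0.0318) or VSG159 replicate 3 (0.031). With VSG159 it was also called lower with slide as a fixed block (-0.84, adjusted p = 0.0313) and as a random block (-0.74, 0.0411), and with DEX under normexp and quantile normalization (0.0322) and in the value table (0.0386). The probes of Lpl thus gave different changes along the gene.

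**Figure D2:**
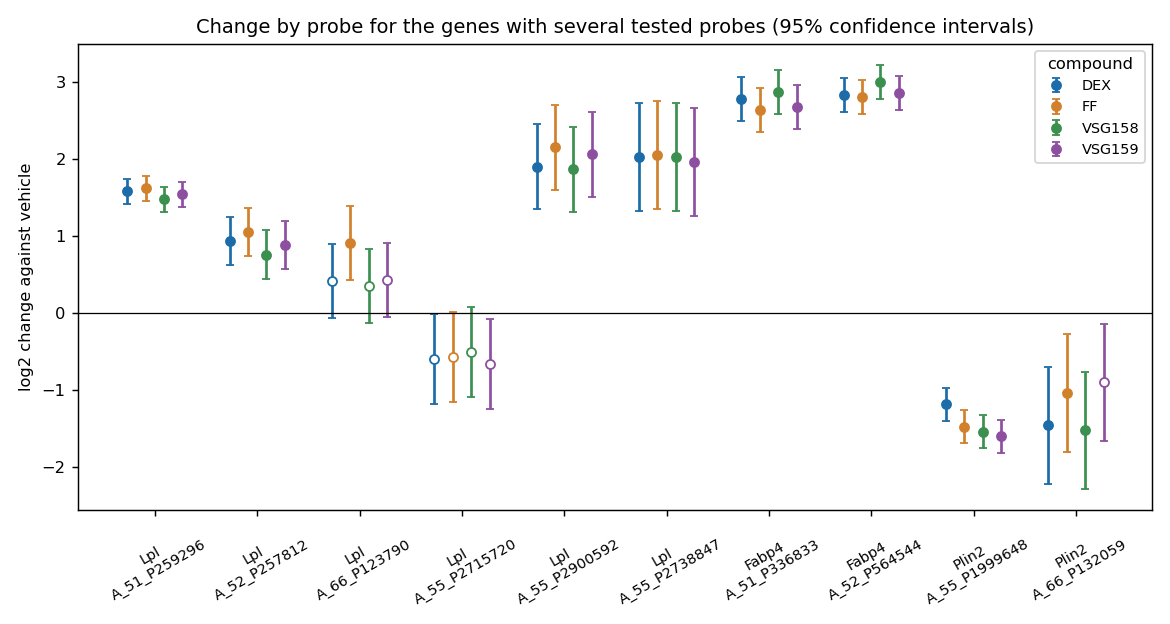
Log2 change against vehicle (vertical axis) with 95% confidence intervals for each tested probe of Lpl, Fabp4 and Plin2 (horizontal axis), by compound, where filled symbols were called and open ones were not. Among the Lpl probes, 4 were called higher with each compound, A_66_P123790 with FF alone and A_55_P2715720 with none, while the 2 Fabp4 probes rose by similar amounts.

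Cd36, the fatty acid translocase and scavenger receptor, fell with each steroid. Its probe (A_51_P375146, chr5:17288600-17288659, minus strand, mm9) read 3.78, 3.63 and 3.93 with vehicle and 3.15, 2.88 and 2.92 with DEX. It read 2.28, 2.55 and 2.37 with FF, 2.34, 2.66 and 1.91 with VSG158, and 1.80, 2.23 and 2.44 with VSG159, so every steroid array lay below the vehicle arrays. Cd36 fell by 0.80 with DEX (SE 0.20, limma adjusted p = 0.00563), and its changes with FF, VSG158 and VSG159 were -1.38, -1.48 and -1.63. In the order DEX, FF, VSG158 and VSG159 these are falls of 1.74-fold, 2.61-fold, 2.79-fold and 3.09-fold. The adjusted p for FF, VSG158 and VSG159 ran from 3.08e-05 to 0.000114. The call with DEX ended with median scaling (-0.82, adjusted p = 0.0665), and with slide as a fixed block the changes with DEX and FF grew to -1.22 and -1.80.

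Fabp4, the fatty acid carrier shared by macrophages and adipocytes, rose on both of its probes. The brighter probe (A_51_P336833, chr3:10204452-10204511, minus strand, mm9) read 3.74, 3.51 and 3.80 with vehicle, and 6.59, 6.19 and 6.62 with DEX. With FF it read 6.28, 6.29 and 6.42, with VSG158 6.56, 6.70 and 6.41, and with VSG159 6.32, 6.49 and 6.29. The groups were apart by more than 2 log2 units, and the 4 steroid groups overlapped among themselves. The rise was 2.78 with DEX (SE 0.13, 6.88-fold), 2.64 with FF (6.25-fold), 2.87 with VSG158 (7.33-fold) and 2.68 with VSG159 (6.41-fold), with limma adjusted p of 3.93e-08 or lower. The probe shown above rose by 2.83 with DEX, 2.81 with FF and 2.87 with VSG159 (SE 0.10), and 8.01-fold with VSG158.

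Fabp5, a carrier also known from skin, fell by a small amount. Its probe (A_55_P1953387, chr3:10016185-10016244, plus strand, mm9) read 7.98, 8.06 and 8.08 with vehicle. It read 7.53, 7.75 and 7.82 with DEX, 7.73, 7.66 and 7.55 with FF, 7.70, 7.65 and 7.49 with VSG158, and 7.65, 7.91 and 7.73 with VSG159. No steroid array reached the lowest vehicle array, and replicate 2 of VSG159 came nearest to it. Fabp5 fell by 0.34 with DEX (limma adjusted p = 0.0203), 0.39 with FF (0.0096) and 0.43 with VSG158 (0.00575), and the change of -0.28 with VSG159 was not called (0.0514). The calls with DEX and FF ended with slide as a fixed block (adjusted p = 0.267 and 0.196) and as a random block (0.107 and 0.0705), and with no filter on dim probes (0.103 and 0.0594), and that with FF also with normexp (0.275) and in the value table (0.289). Median scaling ended the calls with DEX, FF and VSG158 (0.272, 0.331 and 0.142). Without vehicle replicate 2, vehicle replicate 3 or DEX replicate 1 the call with DEX ended (0.0556, 0.0555 and 0.088), and without VSG158 replicate 3, VSG159 replicate 2 or DEX replicate 1 Fabp5 was called with VSG159 (0.0434, 0.0297 and 0.0414), as it was with a stricter filter (0.0466) and at 1 probe per gene (0.0483).

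Plin2, the coat protein of lipid droplets, fell. Its brightest probe (A_55_P1999648, chr4:86302847-86302906, minus strand, mm9) read 6.94, 7.27 and 7.10 with vehicle and 5.81, 6.05 and 5.91 with DEX. The FF arrays read 5.58, 5.59 and 5.73, the VSG158 arrays 5.53, 5.58 and 5.59, and the VSG159 arrays 5.55, 5.48 and 5.48, all below DEX. The fall was 1.18 with DEX (SE 0.10, 2.27-fold), 1.47 with FF (2.78-fold), 1.54 with VSG158 (2.91-fold) and 1.60 with VSG159 (3.03-fold), with limma adjusted p of 1.97e-06 or lower. A second Plin2 probe, A_66_P132059, is listed at base 91 of the transcript. Its listed position, chr4:86302469-86302475 (mm9), lies on the 3′ side of the brightest probe at base 1449, so its place is unclear. This second probe was noisier (SE 0.35). It fell by 1.46 with DEX (adjusted p = 0.00471), 1.04 with FF (0.0303) and 1.52 with VSG158 (0.00353), and its change of -0.90 with VSG159 was not called (0.0544). With slide as a fixed block this probe was no longer called with DEX (-0.27, adjusted p = 0.689), and with FF it turned to 0.15 (adjusted p = 0.833). Its call with FF also ended without vehicle replicate 2 or 3 or FF replicate 2 or 3 (adjusted p from 0.0646 to 0.103), in the value table (0.059) and with no filter (0.068), and it was called with VSG159 without VSG158 replicate 3 (0.032) or VSG159 replicate 1 (0.0326) and with a stricter filter (0.0475).

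Ppard, the receptor of this family that is widely expressed, fell with each steroid. Its probe (A_66_P124715, chr17:28438298-28438357, plus strand, mm9) read 2.80, 3.02 and 2.79 with vehicle, 1.61, 1.70 and 1.66 with DEX, 1.46, 1.35 and 1.41 with FF, 1.20, 1.30 and 1.15 with VSG158, and 1.06, 0.84 and 1.29 with VSG159. The vehicle, DEX and FF arrays did not overlap with each other, and those of VSG158 and VSG159 did. Ppard fell by 1.21 with DEX (SE 0.11, 2.32-fold), 1.47 with FF (2.76-fold), 1.65 with VSG158 (3.14-fold) and 1.81 with VSG159 (3.50-fold), with limma adjusted p of 4.85e-06 or lower.

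Pparg, the receptor that drives fat cell formation, passed the test with none of the steroids. Its tested probe (A_51_P106799, chr6:115440213-115440272, plus strand, mm9) read -2.60, -2.95 and -2.96 with vehicle, -3.28, -2.41 and -3.02 with DEX, -2.93, -2.73 and -2.85 with FF, and -2.43, -2.98 and -2.45 with VSG159. With VSG158 it read -2.81 and -2.13, replicate 3 being left out because its spot carried an outlier flag. All groups overlapped with vehicle. The change was -0.07 with DEX (95% confidence interval -0.62 to 0.48), -0.00 with FF (-0.55 to 0.54), 0.37 with VSG158 (-0.25 to 0.98) and 0.21 with VSG159 (-0.34 to 0.76), so a change of the size seen for Ppard lies outside each interval. In the submitters' value table the change with VSG158 was 0.62 and was called (adjusted p = 0.0343). The second probe, A_55_P2745190, was well above background on 0 of 15 arrays.

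Cpt1a, the enzyme that commits fatty acids to mitochondrial oxidation, fell, and Pdk4 could not be measured. The Cpt1a probe (A_51_P427674, chr19:3385374-3385433, plus strand, mm9) read 0.64, 0.51 and 0.23 with vehicle and -0.59, -0.46 and -0.81 with DEX. It read -0.42, -0.35 and -0.43 with FF, -0.45, -0.50 and -0.93 with VSG158, and -0.66, -0.48 and -0.10 with VSG159, and no steroid array overlapped with vehicle. The fall was 1.08 with DEX (SE 0.17), 0.86 with FF, 1.08 with VSG158 and 0.88 with VSG159, or 2.11-fold, 1.82-fold, 2.12-fold and 1.83-fold, with limma adjusted p from 0.000277 to 0.00148. With slide as a fixed block the changes with DEX and FF were -1.55 and -1.33, and with median scaling the call with VSG159 ended (adjusted p = 0.0527). The Pdk4 probe (A_51_P350453, chr6:5433441-5433500, minus strand, mm9) was not well above background on any of the 15 arrays and was not tested.

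**Figure D3:**
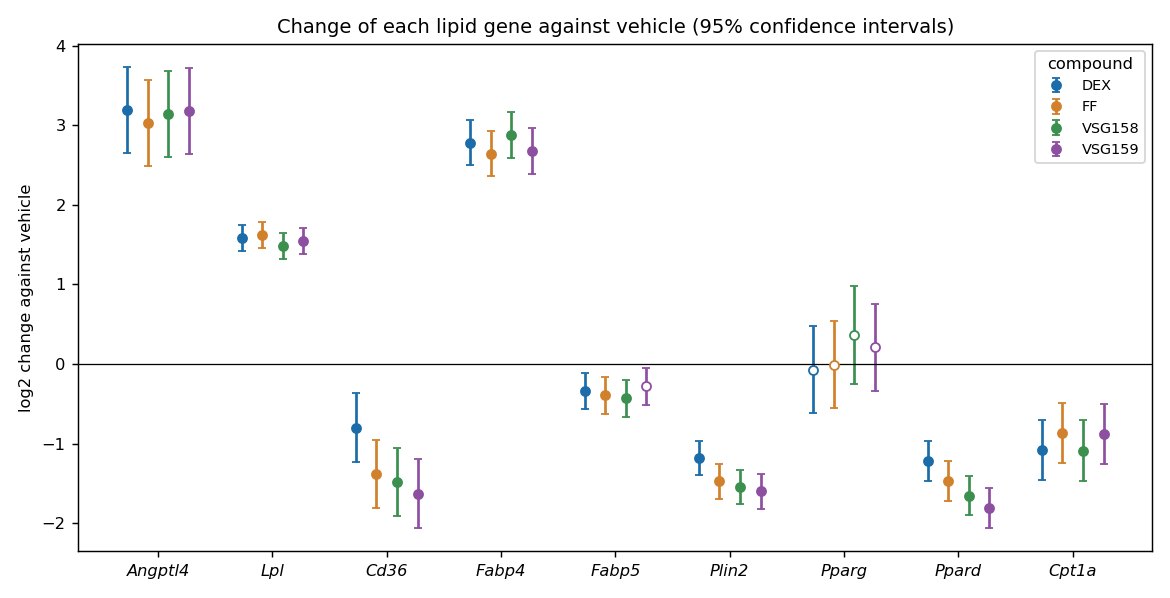
Log2 change against vehicle (vertical axis) with 95% confidence intervals for the brightest tested probe of each gene (horizontal axis), by compound, where filled symbols were called and open ones were not. Angptl4, Fabp4 and Lpl lie above 0, Cd36, Plin2, Ppard and Cpt1a below it, Fabp5 closer to 0, and Pparg on both sides.

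Slide and steroid are confounded for DEX and FF except through replicate 3 of VSG159, which carries the whole slide estimate. The estimate sets that array against replicates 1 and 2 of VSG159. Those 2 arrays had high 75th percentiles for slide 1 (1170 and 1220) and many spots marked as outliers (668 and 639). Replicate 3 of VSG158, also on slide 1, was alike (1223 and 960). A slide difference and a difference between such arrays therefore cannot be told apart in the models with slide. With slide as a fixed or random block, the calls of Angptl4, Lpl, Cd36, Fabp4, Plin2, Ppard and Cpt1a with DEX and FF held on the brightest probe, and those of Fabp5 did not. On slide 1 alone, which holds the 3 vehicle and 3 VSG158 arrays, the 8 members called with VSG158 were called again, Fabp5 at an adjusted p of 0.025. With array position on the slide added to the slide block, limma called 0 members with DEX (5 at an unadjusted p under 0.05; 39 of all probes called), 5 with FF, 7 with VSG158 and 5 with VSG159. In that model Angptl4 with DEX was at 2.31 (adjusted p = 0.279) and Cpt1a at -0.27 (0.92). Position follows the groups: on slide 1 vehicle lay at positions 1 to 3, VSG158 at 4 to 6 and VSG159 at 7 and 8. On slide 2 VSG159 lay at 1, FF at 2 to 4 and DEX at 5 to 7. The model with position can therefore hardly separate it from group, and a call lost there does not show that a change was absent.

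**Figure D4:**
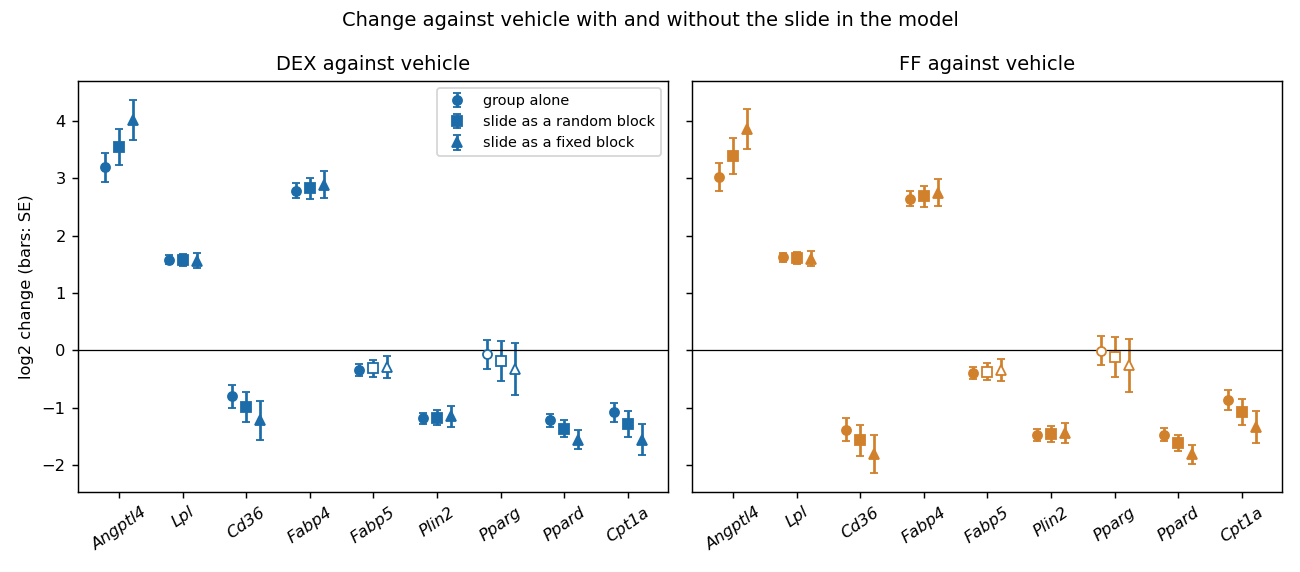
Log2 change of each gene (horizontal axis) with DEX and FF against vehicle (vertical axis, bars at 1 standard error) with group alone, slide as a random block and slide as a fixed block in the model, where filled symbols have an adjusted p under 0.05. Angptl4, Cd36, Ppard and Cpt1a move away from 0 with the block, Lpl, Fabp4 and Plin2 stay close, and Fabp5 loses its call.

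The compounds were compared with each other in 6 pairs at the same dose and time. FF carries a furoate ester and a fluoromethyl thioester where DEX has a free hydroxyl and a hydroxyketone side chain. These compounds lie on the same slide, and limma called 0 of the 9 members between them (3 at an unadjusted p under 0.05), against 4.08% of all genes. Cd36 was lower with FF than with DEX by -0.58 (95% confidence interval -1.01 to -0.15, adjusted p = 0.109), Plin2 by -0.29 (-0.51 to -0.08, 0.109) and Ppard by -0.25 (-0.50 to -0.00, 0.214), and no FF array overlapped with a DEX array for these 3 genes. For Angptl4 the difference was -0.16 (-0.70 to 0.37), for Lpl 0.04 (-0.13 to 0.20) and for Fabp4 -0.14 (-0.42 to 0.15).

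VSG159 differed from DEX in 3 of the 9 members, all lower, against 4.83% of all genes called and 3.50% called lower. Cd36 was lower by 0.83 on the log2 scale (a difference of -0.83, SE 0.20, limma adjusted p = 0.0369), Plin2 by 0.42 (-0.42, SE 0.10, 0.036) and Ppard by 0.59 (-0.59, SE 0.11, 0.0167), and for each the VSG159 and DEX arrays did not overlap. These calls were near the threshold. Over 27 other settings Cd36 was called in 10, Plin2 in 7 and Ppard in 16, and the calls of all 3 ended with slide as a fixed block (-0.55, -0.44 and -0.37). Leaving out VSG159 replicate 2, DEX replicate 1 or DEX replicate 3 ended all 3 calls, with adjusted p for Ppard of 0.0666, 0.0533 and 0.0673. Leaving out VSG159 replicate 1, VSG158 replicate 1, DEX replicate 2 or any FF array ended those of Cd36 and Plin2 (adjusted p from 0.0503 to 0.109), and leaving out VSG159 replicate 3 that of Plin2 (0.0541).

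VSG158 was called apart from DEX in 0 members by limma (3 at an unadjusted p under 0.05), against 2.11% of all genes. Cd36 differed by -0.68 (95% confidence interval -1.11 to -0.25, adjusted p = 0.0969), Plin2 by -0.36 (-0.57 to -0.14, 0.0859) and Ppard by -0.44 (-0.69 to -0.19, 0.0695). VSG158 and DEX share no slide, and with slide as a fixed or random block limma left 1 member at an unadjusted p under 0.05. Over 26 other settings the differences ran from -0.86 to -0.26 for Cd36, -0.413 to -0.006 for Plin2 and -0.48 to -0.10 for Ppard. Without VSG159 replicate 2 or 3, which changes the spread that all groups share, Ppard was called (0.0481 and 0.0329). Among VSG158, VSG159 and FF, limma called 0 members and 0 of all probes in each of the 3 pairs, a background of 0%. At an unadjusted p under 0.05 these pairs had 0 members for VSG158 against FF, 1 for VSG159 against FF and 0 for VSG158 against VSG159. Over all probes, 2087, 1587 and 1645 passed that unadjusted threshold in the same order. The single member was Ppard, lower with VSG159 than with FF by -0.34 (95% confidence interval -0.59 to -0.09, adjusted p = 0.866). VSG158 and VSG159 differed by -0.04 for Angptl4 (-0.58 to 0.50), -0.06 for Lpl (-0.22 to 0.10) and 0.15 for Cd36 (-0.28 to 0.58).

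**Figure D5:**
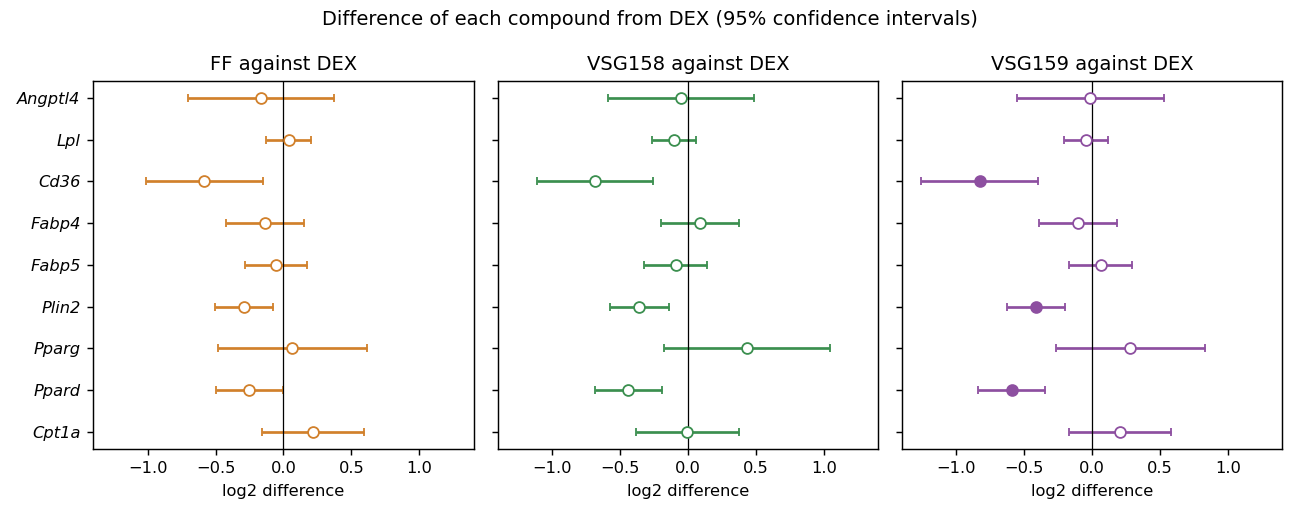
Log2 difference of FF, VSG158 and VSG159 from DEX (horizontal axis) with 95% confidence intervals for the brightest tested probe of each gene (vertical axis), where filled symbols were called and open ones were not. Cd36, Plin2 and Ppard lie below 0 in each panel and are filled for VSG159, and the other genes have intervals that include 0.

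By the order of group means, Cd36, Plin2 and Ppard ran from vehicle through DEX, FF and VSG158 down to VSG159. In that order, vehicle and DEX were called apart, and no other neighbours were. FF and VSG158 share no slide, and their order changed between settings. Over 26 other settings the difference of VSG158 from FF ran from -0.28 to 0.32 for Cd36, -0.18 to 0.13 for Plin2 and -0.30 to 0.16 for Ppard. For Angptl4 the steroid means ran from -0.13 with FF to 0.04 with DEX and for Lpl from 5.69 with VSG158 to 5.83 with FF, with no pair of steroids called apart.

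Other genes of lipid handling were followed in 7 lists with 145 genes, of which 121 had a tested probe. With DEX 41 were called higher and 26 lower, with FF 42 and 31, with VSG158 42 and 33, and with VSG159 35 and 35. The shares called higher were 33.9%, 34.7%, 34.7% and 28.9%, against 23.2%, 20.8%, 19.7% and 19.1% of all genes, and the shares called lower 21.5%, 25.6%, 27.3% and 28.9%, against 23.1%, 21.4%, 24.6% and 24.9%. The lists were chosen with results known, so nothing particular to them is read from these shares. The higher calls fell to 26 and 23 with slide as a fixed block for DEX and FF, and with median scaling the calls in each direction fell to 16 and 15 with DEX, 24 and 18 with FF, 16 and 22 with VSG158, and 24 and 21 with VSG159. Once slide and array position entered the model, 0 were called higher and 1 lower with DEX, 5 and 2 with FF, 29 and 17 with VSG158, and 13 and 8 with VSG159. Against DEX, 3 list genes were called higher and 5 lower with FF, 0 and 3 with VSG158, and 2 and 6 with VSG159. These are 2.48% and 4.13%, 0% and 2.48%, and 1.65% and 4.96% of those tested. Of all genes, 4.08%, 2.11% and 4.83% were called in either direction. Nothing particular to the lists is read from these shares either.

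The lipid uptake and extracellular lipolysis list held 20 tested genes, with 7 lower and 5 higher with DEX, 8 and 6 with FF, 9 and 5 with VSG158, and 8 and 5 with VSG159, and median changes of -0.10, -0.34, -0.32 and -0.38. The median over all genes was 0.03, -0.05, -0.06 and -0.06. The 5 higher with DEX became 3 without vehicle replicate 3 or DEX replicate 2, and the 5 with VSG158 became 3 without vehicle replicate 3. With median scaling 2 were higher with DEX and 3 with VSG158, and 5 lower with FF, and with slide as a fixed block 2 were higher with DEX. Endothelial lipase (Lipg) averaged -2.24 on the vehicle arrays and was not well above background on any steroid array. It was at least 4.14-fold lower with DEX, 5.07-fold with FF, 3.60-fold with VSG158 and 5.95-fold with VSG159, with limma adjusted p of 6.17e-06 or lower. Lysosomal acid lipase (Lipa), which frees fatty acids from ingested lipoproteins, fell by 1.80, 1.38, 1.53 and 1.43 in the same order. The scavenger receptor Msr1 fell by 0.62, 0.89, 0.89 and 0.88.

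Among the 15 tested genes of fatty acid binding and activation, 6 were higher and 3 lower with DEX, 6 and 4 with FF, 7 and 4 with VSG158, and 5 and 5 with VSG159. The higher count was 1 with each steroid under median scaling, and with slide as a fixed block 2 with DEX, 2 with FF and 3 with VSG159. Leaving out 1 array gave 3 or 4 higher with VSG158 (each vehicle array, VSG158 replicates 1 and 2), 2 or 3 higher with VSG159 (vehicle replicates 2 and 3, VSG159 replicates 1 and 3, FF replicate 3) and 3 lower with VSG159 (VSG159 replicate 2). Fabp3, the binding protein of heart and muscle, fell by 2.63, 3.23, 3.14 and 3.19, from a mean of 2.86 on the vehicle arrays. Fabp7, the brain form, fell by 1.42, 1.35, 1.30 and 1.36. The acyl-CoA thioesterase Acot1, which frees fatty acids from coenzyme A, rose by 1.95, 2.46, 2.24 and 2.27. Of the binding proteins named here, Fabp4 was called higher and Fabp3 and Fabp7 lower with each steroid. The member Fabp5 was called lower with DEX, FF and VSG158. Fabp3 and Fabp7 were picked by the F test over the 5 groups and do not stand for the whole family.

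Of the triglyceride synthesis and droplet genes, 6 of 19 were higher and 6 lower with DEX, 5 and 6 with FF, 6 and 7 with VSG158, and 5 and 8 with VSG159. With median scaling 3 were higher with each of DEX, FF and VSG158, 1 was lower with DEX and 5 were lower with VSG159. Hilpda, a droplet protein that inhibits the triglyceride lipase Pnpla2, fell from a mean of 6.20 on the vehicle arrays by 1.53 (DEX), 2.84 (FF), 2.55 (VSG158) and 2.93 (VSG159). Its mean with DEX was 4.67, above 3.36 with FF, 3.65 with VSG158 and 3.27 with VSG159, and the differences from DEX of -1.31, -1.02 and -1.39 were called (limma adjusted p = 0.00288, 0.00781 and 0.00143). The call against DEX held in 23 of 27 other settings for FF, 20 of 26 for VSG158 and 25 of 27 for VSG159, and with slide as a fixed block that of VSG158 ended (-0.74, adjusted p = 0.136). Mogat1, an acyltransferase of triglyceride synthesis, rose by 0.64, 1.07, 0.98 and 1.14, and the phosphatidate phosphatase Lpin2 fell by 0.52, 0.83, 0.68 and 0.72.

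Of 7 tested genes of droplet lipolysis, 1 was called lower with DEX, VSG158 and VSG159 and 2 with FF, and 1 higher with each steroid. The 2 with FF became 1 without vehicle replicate 1 or 3 or any FF array, the 1 lower with VSG158 became 3 without VSG158 replicate 3 and 2 without VSG159 replicate 3, the 1 lower with VSG159 became 2 without VSG158 replicate 3, and the 1 higher with DEX became 2 without VSG159 replicate 3. The neutral cholesterol ester hydrolase Nceh1 fell by 1.75, 1.21, 1.07 and 1.18, and the monoacylglycerol lipase Abhd6 rose by 0.93, 0.92, 0.74 and 0.86. Pnpla2, the main triglyceride lipase, was at 0.32, -0.10, -0.27 and -0.05 and was called with none of the steroids against vehicle (adjusted p from 0.0663 to 0.79). With slide as a fixed block it was called with DEX (0.78, adjusted p = 0.00752) and with VSG158 (-0.27, 0.0489). The DEX arrays of Pnpla2 (3.95 to 4.08) lay above those of vehicle (3.59 to 3.84), FF (3.46 to 3.70), VSG158 (3.28 to 3.51) and VSG159 (3.35 to 3.82).

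Of 33 tested genes of fatty acid oxidation, the process that Cpt1a feeds, 15 or 16 were not called in each comparison and more were called higher than lower. There were 13 higher and 4 lower with DEX, 14 and 4 with FF, 12 and 5 with VSG158, and 12 and 6 with VSG159, with median changes of 0.19, 0.31, 0.24 and 0.24. The shares called higher were 39.4%, 42.4%, 36.4% and 36.4%, against 23.2%, 20.8%, 19.7% and 19.1% of all genes. The higher count fell to 5 (DEX), 8 (FF) and 5 (VSG158) with median scaling, to 8 with DEX and 7 with FF with slide as a fixed block, to 9 with FF with no filter, and to 0 (DEX), 3 (FF) and 5 (VSG159) with slide and array position. Echs1, the short-chain enoyl-CoA hydratase of the oxidation cycle, rose by 1.59, 1.43, 1.50 and 1.41. Acat1, the mitochondrial thiolase, rose by 1.14, 1.26, 1.22 and 1.28, and the dehydrogenase Hadh by 0.93, 1.23, 1.10 and 1.10.

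The pyruvate dehydrogenase list, to which Pdk4 relates, had 6 of 12 genes higher and 2 lower with DEX, 5 and 2 with FF, 6 and 2 with VSG158, and 3 and 2 with VSG159. The 5 with FF became 3 without vehicle replicate 2, and the 2 lower with DEX became 1 without vehicle replicate 2 or DEX replicate 2. With median scaling the higher count was 2 (DEX), 2 (FF), 1 (VSG158) and 1 (VSG159), and with slide as a fixed block 2 with FF. The complex subunits Pdhx and Pdha1 rose, Pdhx by 0.91, 1.11, 1.05 and 1.14 and Pdha1 by 0.76, 0.77, 0.66 and 0.55, and the phosphatase Pdp2 fell by 0.61, 0.83, 0.83 and 0.64. Of 15 tested PPAR partners and co-regulators, 4 were higher and 3 lower with DEX, 5 and 5 with FF, 5 and 5 with VSG158, and 4 and 5 with VSG159. With median scaling 2 were higher with DEX, 3 were lower with FF, 3 higher and 3 lower with VSG158, and 3 lower with VSG159, and with slide as a fixed block 3 were higher with FF. The coactivators Pprc1 and Ppargc1b rose, Pprc1 by 1.88, 2.11, 2.03 and 2.12 and Ppargc1b by 1.16, 1.81, 1.57 and 1.71, while Ncoa3 fell by 1.03, 1.28, 1.29 and 1.33. With median scaling, Mogat1, Lpin2 and Pdp2 were no longer called with DEX, Abhd6 and Pdha1 with VSG158, and Pdha1 and Pdp2 with VSG159. No gene list was tested as a set.

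For each tested member, the genes with the most similar pattern were found by the root mean square difference of values centred on the vehicle mean, over the 15 arrays and among 12944 genes. This is a description, with no test. Plin2 lay nearest to Oasl1 (0.08) and Isg15 (0.11), both interferon-induced genes. Angptl4 lay nearest to Mdm4 (0.25) and Il1rl1 (0.30), Lpl to B3galt6 (0.07) and Prpf19 (0.10), and Cd36 to Slc7a8 (0.15) and Tmem67 (0.16). Ppard lay nearest to Nudt18 (0.10) and H2-T10 (0.11), Fabp4 to Rpp40 (0.15) and Gpr65 (0.18), Fabp5 to Luc7l2 (0.08) and Krtap5-2 (0.10), and Cpt1a to Paf1 (0.11) and Grap (0.11). Pparg lay nearest to Kcnv2 (0.23) and Diaph2 (0.23). The root mean square distance of the members themselves from their vehicle mean ran from 0.31 for Pparg and 0.34 for Fabp5 to 2.46 for Fabp4 and 2.82 for Angptl4, so the likeness of Pparg to its neighbours is little closer than its own distance from vehicle. No member was among the nearest genes of another.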

How the data were processed

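The authors hybridised RNA to 15 one-colour (Cy3) Agilent arrays and scanned them with Feature Extraction 10.7.3.1 (protocol GE1_107_Sep09), per the file headers, with probes placed on mm9. Their deposited scanner files hold per-spot intensity, and the processed signal intensity is background-corrected within an array. The deposited value table holds log2 values of the same arrays (correlation 0.988 to 0.994 with the log2 processed signal; column medians 5.94 to 5.99), whose centring is not given in the sources used here; the submitters' processing notes name limma. It served as an alternative, and 0 of its columns were left unused.

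Control spots (3671 of 62976 per array) were left out, spots marked as nonuniform or population outliers (98 to 960 per array) were set to missing, and spots of a probe were averaged. Each array's 75th percentile was subtracted from its log2 processed signals, and the fit used probes well above background on at least 2 of 3 arrays of at least 1 group. All 15 arrays were fitted together by group with limma 3.58.1 in R 4.3.3 (with the data.table package), with 10 contrasts and 10 residual and 1.79 prior degrees of freedom. A gene is counted by its brightest tested probe. The number of arrays limits the precision. The fit was tested on simulated data in which 50 probes changed by each of 4 sizes in the DEX group. Of changes of 0.5, 1, 2 and 3 log2 units it called 8%, 52%, 82% and 82% against vehicle. Far fewer probes changed there than were called here against vehicle, so these shares need not hold for the data. A change that was not called can still be present. Figures were drawn with matplotlib in Python. Sequences come from the array files and from RefSeq (GRCm38.p6), and the 2 builds were not mixed.

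The members and gene lists were chosen with earlier results of these data known. Named are the members with all their probes, up to 3 genes per list by the smallest F-test adjusted p over the 5 groups, and the 2 genes most like each member. Alternatives were the scaling, the background correction, the value table, the filter, slide, position and replicate blocks, 1 probe per gene, single slides and each array left out.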

Additional observations from a re-analysis of the deposited data

How the results depend on the processing

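Against vehicle the counts of members called stayed within 1.5 times of those reported, apart from slide with array position (0 with DEX and 5 with FF); without 1 array they were 7 to 8 (DEX), 8 (FF), 8 (VSG158) and 7 to 8 (VSG159). For VSG159 against DEX the 3 members became 0 with median scaling, with no filter, with slide as a fixed or random block, with slide and position and on slide 2 alone, 1 with quantile normalization, with normexp and quantile normalization, in the value table and with the replicate block, and 0 to 3 without 1 array. FF against DEX had 1 with normexp and quantile normalization (Cd36), and VSG158 against DEX 0 to 1 without 1 array. Of single changes, 3 turned sign: the second Plin2 probe with FF (0.15, fixed slide block), Pdp2 with DEX (0.023) and Fabp3 for VSG158 against DEX (0.17), the last pair with slide and position.

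Over all probes, calls against vehicle moved with median scaling (7835 (DEX), 7211 (FF), 7877 (VSG158) and 7283 (VSG159), from 13420, 12270, 12990 and 12804), with slide and position (39, 1322, 8197 and 3686) and, for VSG158, at 1 probe per gene (8624). FF against DEX had 1216, and 0 with median scaling, 707 with normexp, 532 in the value table, 146 with no filter, 2072 with a fixed slide block, 76 with slide and position, 540 with the replicate block, 807 at 1 probe per gene and 165 to 1930 without 1 array. VSG158 against DEX had 681, and in that order of settings 28, 419, 371 and 119, then 0 with a random slide block, 0 with slide and position, 408 with the replicate block, 388 at 1 probe per gene and 158 to 889 without 1 array. VSG159 against DEX had 1360, then 42, 575, 488 and 149, 619 with a fixed and 307 with a random slide block, 0 with slide and position, 742 with the replicate block, 2 on slide 2 alone and 244 to 1892 without 1 array. The pairs among FF, VSG158 and VSG159 had 0, and 2 for VSG159 against FF with median scaling. A fixed slide block gave 5 for VSG158 against FF, 2 for VSG159 against FF and 28 for VSG158 against VSG159. Without 1 array they had 0 to 42, 0 to 74 and 0 to 51. The causes of these shifts were not tested. Some settings have fewer probes or arrays, and array position nearly follows group.

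Deviations of same-numbered arrays from their group means correlated from -0.53 to 0.28 over 30 pairs (median -0.03, 7 over 0.1) and of others from -0.33 to 0.46. VSG158 replicate 3, for example, was at 0.46 with VSG159 replicate 1 and -0.51 with VSG159 replicate 3. Such values also carry differences between single arrays, so they cannot decide whether replicate numbers pair the samples. With the replicate block the members called against vehicle were 8, 8, 8 and 7, as without it, and 1 for VSG159 against DEX (Ppard); the second Plin2 probe with FF was no longer called. With 3 arrays per group, small changes such as that of Fabp5 lie near the limit, and signals near background, as for Pdk4, give none.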
